A study of Mus musculus with 14 samples.

Results

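Immediate early genes are switched on within minutes of a stimulus, without new protein synthesis, through kinase cascades that end on serum response factor, CREB and related factors already bound at their promoters. In liver they respond to growth factors, partial hepatectomy, cytokines and stress, and handling of the tissue before freezing can raise them too. Many encode transcription factors, among them the Fos and Jun proteins that pair to form AP-1. Others are brakes that switch the response off again, such as the phosphatase Dusp1 and the mRNA decay factor Zfp36. The 10 genes described here are Fos, Fosb, Jun, Junb, Egr1, Atf3, Ier2, Ier3, Dusp1 and Zfp36. They were chosen by symbol, not by their values, and are 10 of the 77981 genes in the deposited count table, where each has its own row.

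The table holds 14 libraries of mouse liver tumours, counted at the 3′ ends of messenger RNA. The tumours arose after hydrodynamic injection had forced plasmids carrying mouse β-catenin and c-Myc into the liver, in all groups alike. There were 5 libraries labelled WT, 5 labelled CDK18KO and 4 labelled DKO, whose sample titles read CDK16KO CDK18KO. The series title names CDK16 and CDK18, related cyclin-dependent kinases, as the subject. Floxed Cdk16 was to be removed in tumours already formed, by Cre-ERT2, a recombinase that tamoxifen activates, at 75 mg/kg for 5 days, with collection 10 days after the last dose. Cre-ERT2 control animals received tamoxifen as well. The protocols do not say which label these controls carry, which promoter drives Cre-ERT2 or whether the Cdk18 loss is germline. Animals were taken at a tumour size of 15 mm, at signs of distress or at 8 weeks, so the time from injection was not fixed. Age, sex and strain are not given in the sources used here. No label states that replicates came from separate animals, so p-values measure the spread between these libraries, which may be in part technical.

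Total counts ran from 1442417 in WT 5 to 6068209 in WT 2, and the 10 immediate early genes together held 453 to 3093 counts per library. WT 5 and DKO 4 had the lowest totals, and their mitochondrial share of counts was 7.74% and 8.13%, against 1.27% to 5.82% in the other 12 libraries. Y-linked genes summed to 204, 788 and 348 CPM in WT 3, WT 5 and CDK18KO 1, and to at most 33.0 CPM elsewhere. CPM is the count relative to the library total, after scaling by TMM factors. Of the targeted genes, Cdk18 averaged 4.76 CPM in WT, 1.98 CPM in CDK18KO and 1.90 CPM in DKO, and Cdk16 averaged 49.1, 40.6 and 30.8 CPM. Neither passed the test in any comparison, with log2 fold changes of -1.24 for Cdk18 in CDK18KO (edgeR adjusted p = 0.338) and -0.67 for Cdk16 in DKO (edgeR adjusted p = 0.310). Tags at the 3′ end may lie outside a deleted exon, and directions below are those of the labels. Albumin, the main hepatocyte product, ran from 31.5 CPM in WT 1 to 3429 CPM in DKO 2. The summed level of 12 hepatocyte markers was 95.3 to 3152 CPM in WT, 1012 to 9961 CPM in CDK18KO and 1350 to 16897 CPM in DKO. In bulk tumour, fewer cells of a type cannot be told apart from less RNA per cell.

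The promoter sequences are printed because the genes' known inducers act there. RefSeq promoters on GRCm38.p6, each covering 250 bases before and 50 after a start given in RefSeq, were at hand for 8 of the 10 genes, all but Egr1 and Ier2. The 5 below are those that hold a CREB, AP-1, ATF or serum response motif. Capitals mark TGACGT, the core of the cyclic AMP response element read by CREB and ATF proteins, in Fos, Atf3 (as its reverse complement) and Dusp1, where the second copy extends to the full TGACGTCA. In Jun they mark TGACATCA, the variant AP-1 site through which Jun is known to act on its own gene. In Zfp36 they mark a CArG box, the serum response factor site, and in Fos also the TATA box TATAAA. The windows are chr12:85473640-85473939 on the plus strand for Fos and, all on the minus strand, chr4:95052173-95052472 for Jun, chr1:191183284-191183583 for Atf3, chr17:26508423-26508722 for Dusp1 and chr7:28379179-28379478 for Zfp36.
Fos: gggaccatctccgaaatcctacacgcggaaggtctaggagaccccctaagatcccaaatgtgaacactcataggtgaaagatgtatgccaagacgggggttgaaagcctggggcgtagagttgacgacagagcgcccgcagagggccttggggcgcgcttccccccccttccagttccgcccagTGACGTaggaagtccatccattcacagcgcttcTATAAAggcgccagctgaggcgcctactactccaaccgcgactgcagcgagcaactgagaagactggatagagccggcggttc
Jun: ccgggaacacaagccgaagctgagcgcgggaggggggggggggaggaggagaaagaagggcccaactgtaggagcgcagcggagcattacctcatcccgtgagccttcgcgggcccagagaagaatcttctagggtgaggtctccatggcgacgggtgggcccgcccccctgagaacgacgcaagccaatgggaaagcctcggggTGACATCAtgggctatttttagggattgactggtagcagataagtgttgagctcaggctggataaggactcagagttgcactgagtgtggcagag
Atf3: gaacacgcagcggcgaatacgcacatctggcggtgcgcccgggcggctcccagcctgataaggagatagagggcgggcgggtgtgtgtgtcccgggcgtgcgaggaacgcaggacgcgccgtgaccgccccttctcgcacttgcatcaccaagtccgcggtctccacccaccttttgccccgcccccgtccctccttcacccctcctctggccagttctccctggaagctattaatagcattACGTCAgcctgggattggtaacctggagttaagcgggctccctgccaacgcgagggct
Dusp1: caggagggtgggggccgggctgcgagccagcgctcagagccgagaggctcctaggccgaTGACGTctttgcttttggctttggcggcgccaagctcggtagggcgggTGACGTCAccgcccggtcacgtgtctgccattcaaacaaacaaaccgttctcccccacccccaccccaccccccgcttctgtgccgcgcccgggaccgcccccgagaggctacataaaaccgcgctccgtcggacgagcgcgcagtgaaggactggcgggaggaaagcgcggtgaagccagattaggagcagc
Zfp36: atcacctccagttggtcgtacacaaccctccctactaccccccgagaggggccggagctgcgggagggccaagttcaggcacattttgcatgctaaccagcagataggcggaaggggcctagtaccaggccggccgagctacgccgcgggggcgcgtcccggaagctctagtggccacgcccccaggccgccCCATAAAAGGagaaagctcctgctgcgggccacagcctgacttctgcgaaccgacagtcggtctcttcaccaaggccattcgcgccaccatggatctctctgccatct

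Motifs were searched on both strands. TGACGT occurred in 3 of the 8 promoters and in 7.51% of all 32851 RefSeq promoters of this length. The full TGACGTCA, which contains that core, occurred in Dusp1 alone of the 8 and in 1.79% of all promoters. TGACATCA was found in Jun alone (3.62% of all), TTACGTCA, which overlaps the core in Atf3, in Atf3 alone (0.499%), and the CArG box in Zfp36 alone (1.63%). The classical AP-1 site TGACTCA was in none of the 8 windows, and in 5.2% of all. TATAAA lay in Fos and Junb (13.6% of all), the GC box GGGCGG in 7 of the 8 (35.7%), and the EGR site GCGNGGGCG in Fosb and Zfp36 (5.55%). Counted from the RefSeq start of each window, the first base of the motif stood at -66 for the Fos core, -45 for Jun, -8 for Atf3, -191 and -143 for the 2 Dusp1 cores, and -58 for the Zfp36 CArG box. These matches describe the letters in the window and are not evidence of binding.

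In GENCODE M21 on GRCm38, Fos lies at chr12:85473890-85477273 on the plus strand and Fosb at chr7:19302696-19310051 on the minus strand. Jun, at chr4:95049034-95052222, overlaps the antisense gene Junos. Junb, at chr8:84974484-84978718, overlaps Prdx2 on the opposite strand. Zfp36, at chr7:28376784-28380253, overlaps the antisense gene Gm44710. Dusp1, at chr17:26505590-26562128, has a model that overlaps Ergic1 on the opposite strand, and processed pseudogenes. The kit keeps the strand, but the strand setting used in counting is not given, so how reads in such overlaps were counted is not known. Atf3 lies at chr1:191170296-191218039. The promoter windows of Atf3, Dusp1 and Zfp36 lie wholly inside these GENCODE models, whose starts are further upstream.

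Fos encodes the AP-1 partner with the sharpest and briefest induction. Its level was 5.93, 5.91, 7.57, 35.0 and 163 CPM in WT 1 to 5. It was 9.63, 1.60, 3.42, 8.26 and 1.39 CPM in CDK18KO 1 to 5, and 4.29, 2.25, 9.06 and 8.89 CPM in DKO 1 to 4. WT 4 and WT 5 stood above every other library, and the remaining 3 WT libraries lay inside the range of the mutant groups. The means were 43.4 ± 67.8 CPM (SD, n = 5) in WT, 4.86 ± 3.84 CPM (n = 5) in CDK18KO and 6.12 ± 3.40 CPM (n = 4) in DKO. The log2 fold change was -3.10 (SE 0.96, edgeR adjusted p = 0.164) for CDK18KO against WT and -2.79 (SE 1.04, edgeR adjusted p = 0.171) for DKO against WT. Neither passed the threshold of an adjusted p under 0.05 in edgeR, whereas DESeq2, the alternative count test, called both, with adjusted p = 0.0147 and 0.0404. Without WT 5 the log2 fold changes came down to -1.46 (edgeR adjusted p = 0.403) and -1.15 (edgeR adjusted p = 0.444). DKO and CDK18KO differed by 0.31 (SE 0.98, edgeR adjusted p = 0.995).

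Fosb, a second Fos-type partner, was close to undetected, with 123 counts over all libraries. WT 1 to 5 had 1, 2, 0, 7 and 9 counts. CDK18KO 1 to 5 had 0, 0, 2, 2 and 1, and DKO 1 to 4 had 1, 1, 6 and 91. DKO 4 alone held 74.0% of the counts, and 10 libraries had 3 counts or fewer. In DKO 4 these counts were 50.6 CPM. Fosb did not pass the filter on low counts and so is the member without a test. With no filter, edgeR gave adjusted p = 0.552, 0.255 and 0.197 for CDK18KO against WT, DKO against WT and DKO against CDK18KO.

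Jun encodes the main Jun-type AP-1 subunit and is a target of the stress kinase JNK. Its level was 126, 82.3, 99.3, 174 and 567 CPM in WT 1 to 5. In CDK18KO 1 to 5 it was 119, 84.0, 67.1, 368 and 40.8 CPM, and in DKO 1 to 4 it was 98.9, 108, 149 and 341 CPM. Each group held a single library far above the rest, WT 5, CDK18KO 4 and DKO 4, and the groups overlapped throughout. The means of 210 ± 203 CPM (n = 5), 136 ± 133 CPM (n = 5) and 174 ± 113 CPM (n = 4) lay within 1 SD of each other. The log2 fold change was -0.62 (SE 0.65, edgeR adjusted p = 0.652) for CDK18KO and -0.26 (SE 0.69, edgeR adjusted p = 0.854) for DKO against WT.

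Junb, a Jun-type subunit that restrains Jun in many cells, stood at 41.9, 48.8, 38.7, 26.5 and 109.5 CPM in WT 1 to 5. It stood at 69.0, 28.2, 18.9, 57.8 and 32.4 CPM in CDK18KO 1 to 5 and at 44.3, 59.2, 62.5 and 150.0 CPM in DKO 1 to 4. DKO 4 and WT 5 were the highest, CDK18KO 3 was the lowest, and no groups separated. On the log2 scale, CDK18KO differed from WT by -0.35 (SE 0.46, edgeR adjusted p = 0.727) and DKO by 0.58 (SE 0.49, edgeR adjusted p = 0.533). Without DKO 4 the latter was 0.0572.

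Atf3, an ATF and CREB family member induced by stress and able to pair with Jun, had 7.79, 5.63, 4.95, 7.88 and 25.5 CPM in WT 1 to 5. It had 11.8, 8.51, 4.35, 51.9 and 10.2 CPM in CDK18KO 1 to 5 and 10.0, 18.0, 7.12 and 23.3 CPM in DKO 1 to 4. CDK18KO 4 was the highest library, as WT 5 was within WT, and these were the same libraries that carried the highest Jun in their groups. From WT, CDK18KO differed by 0.79 (SE 0.66, edgeR adjusted p = 0.570) and DKO by 0.53 (SE 0.70, edgeR adjusted p = 0.695).

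Egr1, on chromosome 18, encodes a zinc finger factor induced by ERK signalling through serum response factor. Its level was 40.4, 43.3, 23.0, 46.0 and 133 CPM in WT 1 to 5 and 23.6, 42.5, 51.2, 42.9 and 118 CPM in CDK18KO 1 to 5. The DKO libraries had 52.3, 73.8, 59.2 and 118 CPM. WT and CDK18KO each had 4 libraries between 23.0 and 51.2 CPM and a single higher one, and all 4 DKO libraries were above 51.2 CPM. Egr1 showed the smallest difference of the tested members between CDK18KO and WT, -0.03 (SE 0.49, edgeR adjusted p = 0.979). In DKO it was 0.42 (SE 0.52, edgeR adjusted p = 0.675) from WT.

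**Figure D1:**
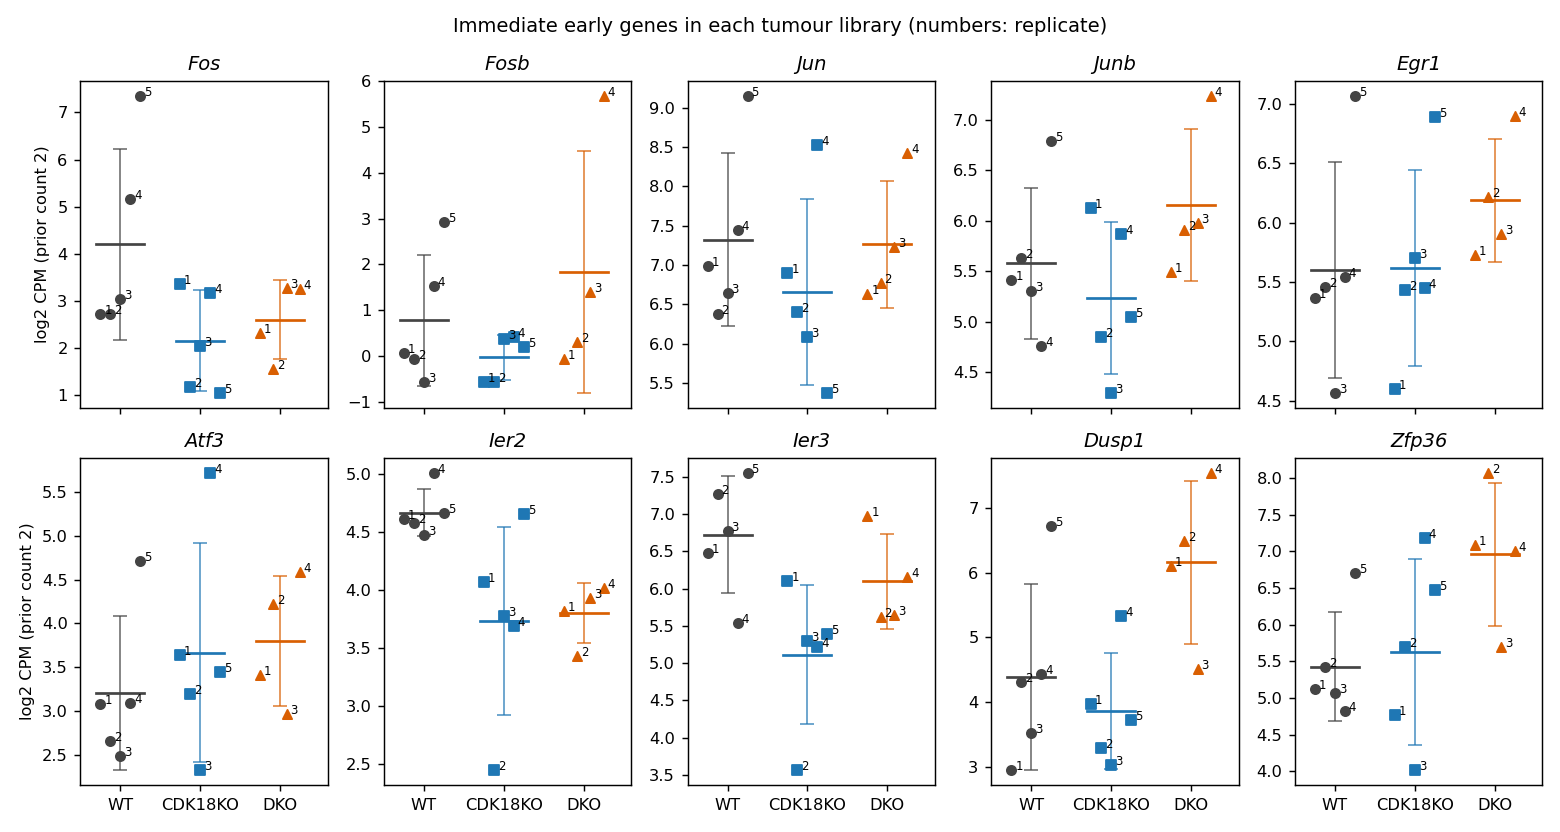
Log2 CPM, with a prior count of 2, of each of the 10 immediate early genes in the 14 libraries, by group. Points are libraries with their replicate number, horizontal lines are group means and bars are SD. WT 5 stands highest for Fos, Jun, Egr1 and Ier3, DKO 4 for Fosb, Junb and Dusp1, and CDK18KO 4 for Atf3.

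Ier2, a small nuclear protein of the early response, was the most even of the 10. WT 1 to 5 had 23.7, 23.2, 21.5, 31.5 and 24.7 CPM. CDK18KO 1 to 5 had 16.2, 4.79, 13.0, 12.2 and 24.6 CPM, and DKO 1 to 4 had 13.4, 10.1, 14.6 and 15.6 CPM. All 4 DKO libraries lay below all 5 WT libraries, which made Ier2 the single member whose groups did not overlap in any comparison. Over all 13997 genes tested, 2.46% had every DKO library below every WT library, and 5.49% had these groups apart in either direction. The shares apart were 2.7% for CDK18KO against WT and 1.59% for DKO against CDK18KO, where no member was apart. The DKO mean was 13.4 ± 2.36 CPM (n = 4) against 24.9 ± 3.85 CPM (n = 5) in WT. The log2 fold change was -0.89 (SE 0.37), and the call was not made (edgeR adjusted p = 0.215). CDK18KO, at 14.2 ± 7.16 CPM (n = 5), reached into the WT range through CDK18KO 5 and differed from WT by -0.81 (SE 0.35, edgeR adjusted p = 0.255).

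Ier3, a survival factor also driven by NF-κB, had 88.6, 154, 109, 45.7 and 187 CPM in WT 1 to 5. CDK18KO 1 to 5 had 68.0, 11.2, 38.5, 36.7 and 41.2 CPM, and DKO 1 to 4 had 125, 48.5, 49.2 and 70.6 CPM. Only WT 4, at 45.7 CPM, fell into the CDK18KO range, and the DKO mean lay between those of the other groups. The means were 117 ± 55.2 CPM (n = 5), 39.1 ± 20.2 CPM (n = 5) and 73.2 ± 35.8 CPM (n = 4). The log2 fold change between CDK18KO and WT was -1.57 (SE 0.46, edgeR adjusted p = 0.162), and DESeq2 called it at adjusted p = 0.0238. DKO differed from WT by -0.67 (SE 0.49, edgeR adjusted p = 0.471).

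Dusp1 encodes a nuclear phosphatase that inactivates JNK, p38 and ERK. Its level was 7.05, 19.2, 10.8, 20.8 and 105 CPM in WT 1 to 5 and 14.9, 9.04, 7.45, 39.6 and 12.5 CPM in CDK18KO 1 to 5. In DKO 1 to 4 it was 68.3, 89.6, 22.0 and 186 CPM. All DKO libraries were above 4 of the 5 WT and 4 of the 5 CDK18KO libraries, with WT 5 and CDK18KO 4 as the libraries that overlapped them. The mean of 91.4 ± 68.9 CPM (n = 4) in DKO compared with 32.6 ± 40.9 CPM (n = 5) in WT and 16.7 ± 13.1 CPM (n = 5) in CDK18KO. The log2 fold change was 1.51 (SE 0.78, edgeR adjusted p = 0.306) for DKO against WT and 2.44 (SE 0.79, edgeR adjusted p = 0.516) for DKO against CDK18KO. Leaving out WT 5 moved the former to 2.61 and leaving out DKO 4 moved it to 0.90, with no call in either.

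Zfp36 encodes tristetraprolin, which binds AU-rich messages such as those of cytokines and of Fos and speeds their decay. Its level was 34.1, 42.3, 32.9, 27.7 and 103 CPM in WT 1 to 5 and 26.7, 51.1, 15.5, 144 and 88.0 CPM in CDK18KO 1 to 5. In DKO 1 to 4 it was 135, 268, 51.1 and 128 CPM. DKO 2 was the highest library, and 3 of the 4 DKO libraries lay above every WT library. The means were 48.1 ± 31.3 CPM (n = 5) in WT, 65.1 ± 52.3 CPM (n = 5) in CDK18KO and 146 ± 90.1 CPM (n = 4) in DKO. DKO differed from WT by 1.61 (SE 0.62, edgeR adjusted p = 0.184) and from CDK18KO by 1.16 (SE 0.62, edgeR adjusted p = 0.921).

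Taken as a list, no member was called by edgeR in any comparison, against 0.00714% of all tested genes for CDK18KO against WT, 0.00714% for DKO against WT and 0% for DKO against CDK18KO. At an unadjusted p under 0.05 there were 3 of the 9 tested members in the first comparison, Fos, Ier2 and Ier3, all lower, where 16.9% of all genes were past it. In the second there were also 3, Fos and Ier2 lower and Zfp36 higher, with 18.9% of all genes past it. The third had 1, Dusp1, higher in DKO, with 5.8% of all genes past it. DESeq2 called 2, 1 and 0 members, where it called 6.14%, 7.41% and 0.603% of all genes. limma voom with sample weights called 0, 0 and 0.

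The direction was mixed within the list. Between CDK18KO and WT, 2 members were higher and 7 lower, where 49.4% of all genes were higher, and the members' median log2 fold change was -0.62 (all genes -0.01). This median turned to 0.16 without WT 5. Between DKO and WT, 5 were higher and 4 lower (47.9% of all genes higher), with a median of 0.42 (all genes -0.04), from -2.79 for Fos to 1.61 for Zfp36. Between DKO and CDK18KO, 7 were higher and 2 lower (48.2% of all genes higher), with a median of 0.45 (all genes -0.02). The comparisons share libraries and are not independent of each other.

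**Figure D2:**
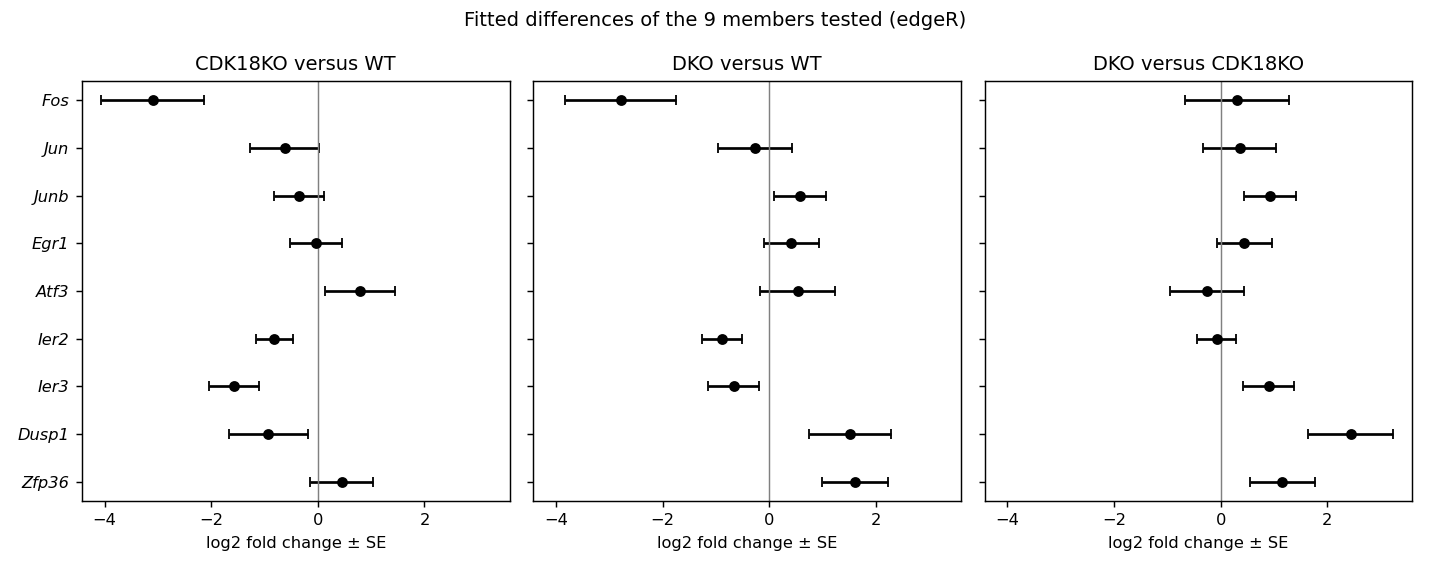
Log2 fold change and its standard error for the 9 tested members in the 3 comparisons, with 0 as the line of no difference. Fos lies at -3.10 and -2.79 against WT, Dusp1 at 2.44 between DKO and CDK18KO, and none passed the adjusted threshold.

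Of the 10 members, 9 varied more between libraries of a group than the median tested gene, and Ier2 varied less. The SD of log2 CPM within groups was 0.67 for the median tested gene, 1.46 for Fos, 1.66 for Fosb, 1.22 for Dusp1 and 0.52 for Ier2, the lowest of the 10. WT 5 was among the 3 highest libraries for 9 of the 10 members and DKO 4 for 6. CDK18KO 2 and CDK18KO 3 were each among the 3 lowest for 6 members. Summed over the list, the members reached 1425 CPM in WT 5, 1092 CPM in DKO 4 and 762 CPM in CDK18KO 4, with 220 CPM in CDK18KO 3 as the lowest.

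WT 5 and DKO 4 are also the libraries with the lowest totals and the highest mitochondrial share, as given above. Their summed level of hypoxia genes was 2862 and 3703 CPM, against 832 to 1521 CPM in the other 12 libraries. The summed level of 16 heat shock genes was 8656 CPM in WT 5, within the range of the others, and lowest in DKO 4 at 5675 CPM. Hsp90ab1 alone made up 2529 CPM of the latter, and the mean log2 CPM of the 16 was 6.84 in DKO 4 and 6.66 in WT 5, with 7.18 in CDK18KO 4 as the highest. The stress-inducible Hspa1b, 1 gene of the 16, was among the higher in both, at 53.9 CPM in DKO 4 and 46.3 CPM in WT 5, with 60.2 CPM in WT 4. Other heat shock genes were mixed. Leaving out WT 5 moved the CDK18KO against WT log2 fold change from -0.68 to -0.81 for Dnajb1. For Hspa1a it moved from -1.56 to -1.43, in the opposite direction. The part of these measures in the immediate early gene levels was not tested.

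**Figure D3:**
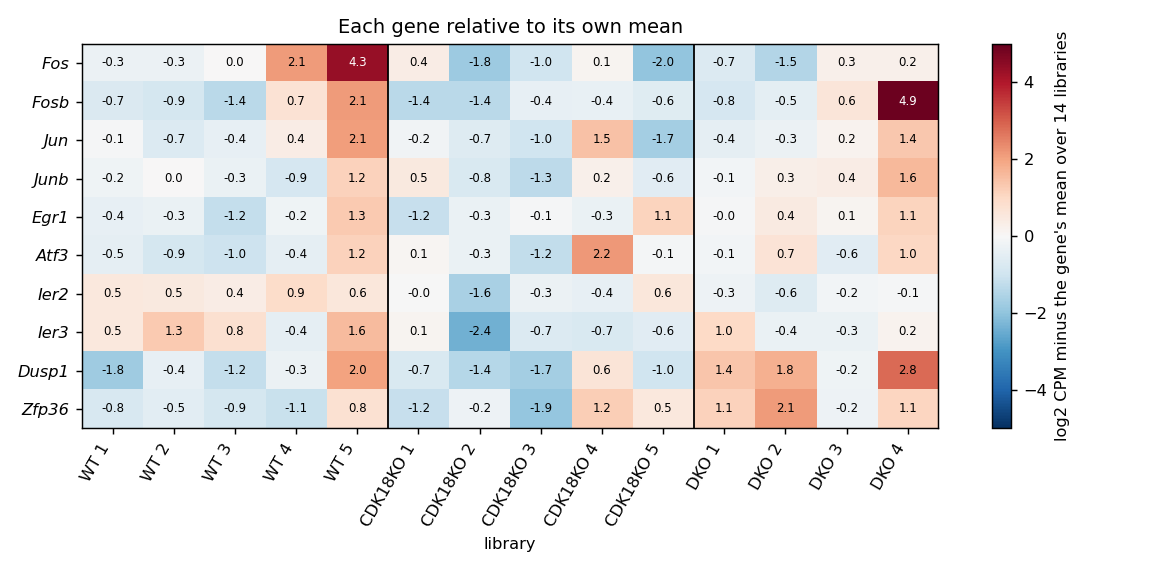
Colour map of log2 CPM of each member (rows) in each library (columns), relative to that member's mean over the 14 libraries. WT 5 is above the mean for all 10 members, and CDK18KO 3 is among the 3 lowest libraries for 6 of the 10.

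The members moved together in part, as counted over 45 pairs of genes in 14 libraries on log2 CPM. Pearson's r was above 0 in 40 pairs, with a median of 0.44 and a range from -0.25 (Ier2 and Zfp36) to 0.79 (Dusp1 and Zfp36). Taking deviations from group means left the median at 0.43. All pairs share the libraries and their depth, and the median was 0.30 without WT 5 and 0.18 without WT 5 and DKO 4. In 14 pairs the Pearson permutation p passed 0.05 after adjustment over the 45, and in 4 the Spearman p did so as well.

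The highest r was that of the brakes, while the highest rho was that of Fos and Jun, and on deviations from group means the highest r was 0.85, for Atf3 and Dusp1. Dusp1 and Zfp36 had r = 0.79 and rho = 0.73 (permutation p = 0.00097, adjusted 0.0175 for r and 0.0478 for rho), and r = 0.82 without WT 5 and DKO 4, the libraries farthest from the Dusp1 median. Junb and Dusp1 had r = 0.78 and rho = 0.72 (permutation test, adjusted p = 0.0175 for r), and 0.62 without CDK18KO 3 and DKO 4. The AP-1 partners Fos and Jun had r = 0.77 and rho = 0.82 (permutation p = 0.00117, adjusted 0.0175 for r and 0.0274 for rho), and 0.69 without WT 4 and WT 5. Fosb and Egr1 had r = 0.68 and rho = 0.73 (permutation test, adjusted p = 0.0260 and 0.0478), falling to 0.43 without WT 5 and DKO 4, and rest on very low Fosb counts. Fos and Egr1, which share an upstream route through serum response factor, had r = 0.18. Ier2 tracked Ier3 at 0.66 but Dusp1 at -0.02.

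**Figure D4:**
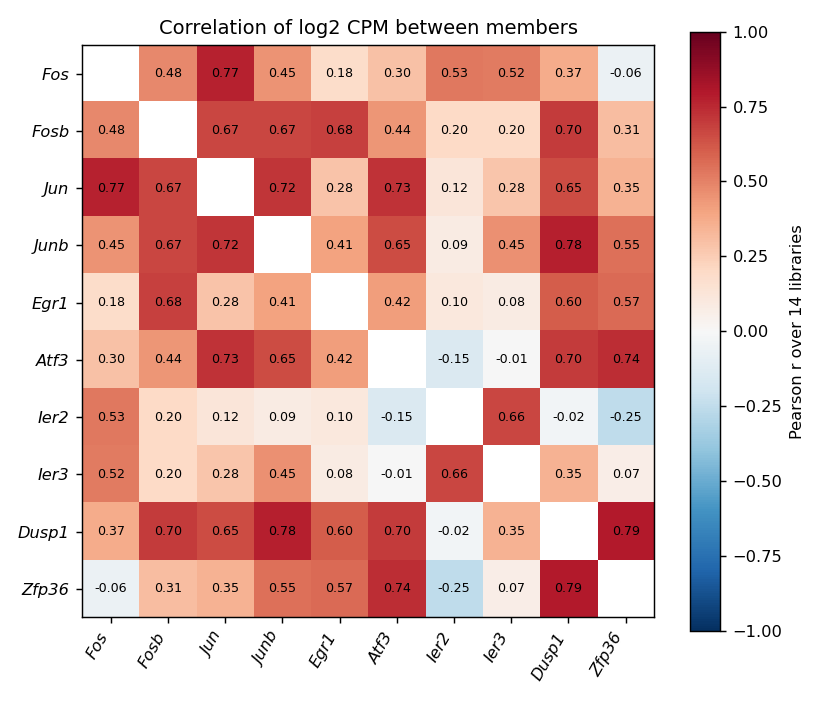
Pearson correlation of log2 CPM over the 14 libraries for each pair of the 10 members, with r printed in each cell. Jun, Junb, Atf3, Dusp1 and Zfp36 form a block of mostly high values, while Ier2 correlates with Fos and Ier3 and lies near or below 0 with Atf3, Dusp1 and Zfp36.

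Ranked by r with the members' mean standardised level over the 14 libraries, among 13988 other genes, the 10 most alike were Bhlhe40 (0.88), Csrnp1 (0.87), Creb5 (0.84), Nipa1 (0.83), Picalm (0.82), Ppp1r15a (0.81), Rsad2 (0.80), Maff (0.80), Dusp10 (0.80) and Gm28641 (0.80). Of these 10, 5 were also among the 10 highest when deviations from group means were used. The members' mean standardised level was 1.47 in WT 5 and 1.18 in DKO 4, with 0.36 in CDK18KO 4 as the next. The ranking was not repeated without WT 5 and DKO 4. The values are descriptions and carry no test.

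Of 12 further AP-1 subunits and bZIP partners, 8 were tested and none was called by edgeR, DESeq2 or voom, with 0, 0 and 1 past an unadjusted edgeR p of 0.05 in the 3 comparisons, where 16.9%, 18.9% and 5.8% of all genes were past it. Their medians were -0.23, 0.01 and 0.26 in CDK18KO against WT, DKO against WT and DKO against CDK18KO. The smallest p belonged to Maff, a small Maf protein, at 36.3 ± 36.0 CPM in DKO (n = 4) and 12.8 ± 6.37 CPM in CDK18KO (n = 5), with a log2 difference of 1.49 (SE 0.65, edgeR adjusted p = 0.797). DKO 4, at 90.0 CPM against 12.6, 21.4 and 21.4 CPM in DKO 1 to 3, carried it, and without DKO 4 the difference was 0.50.

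Of 35 other immediate early and early response genes, 32 were tested and none was called by edgeR. In CDK18KO against WT, 12 were higher and 20 lower, with a median of -0.56, and 8 were past an unadjusted p of 0.05, all lower (16.9% of all genes past it). Those with the smallest p were Ccn2, a matricellular YAP target (11.3 ± 9.36 against 58.8 ± 29.3 CPM, log2 fold change -2.36, edgeR adjusted p = 0.162), and Klf4, a Krüppel-like factor (-2.58, edgeR adjusted p = 0.162). Plk2 differed by -1.51 and Egr3 by -2.92 (edgeR adjusted p = 0.168 and 0.186). DESeq2 called these 4 genes, where it called 6.14% of all genes. In DKO against WT, 18 were higher and 14 lower, with a median of 0.22, and 4 were past an unadjusted p of 0.05, all higher, a smaller share than the 18.9% of all genes.

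Errfi1, a feedback inhibitor of the EGF receptor, averaged 262 ± 219 CPM in DKO (n = 4) and 38.0 ± 32.0 CPM (n = 5) in WT, with a log2 difference of 2.79 (edgeR adjusted p = 0.146) that came to 0.0311 with hepatocyte marker level as a covariate. Klf2, a Krüppel-like factor of endothelium, stood at 73.0 ± 28.8 CPM in DKO against 31.3 ± 9.84 CPM in WT and 26.2 ± 8.75 CPM in CDK18KO. Its log2 fold changes were 1.22 and 1.48 (edgeR adjusted p = 0.146 and 0.256), and 0.54 and 1.28 with the same covariate. DESeq2 called Klf2 in both and Errfi1 against WT, where it called 7.41% of all genes against WT and 0.603% against CDK18KO. Between DKO and CDK18KO, 28 of the 32 were higher and 4 lower, with a median of 0.57, and 8 were past an unadjusted p of 0.05, all higher (5.8% of all genes past it). Nr4a1, an early nuclear receptor, averaged 17.2 ± 3.23 against 6.81 ± 2.08 CPM there (log2 fold change 1.33, edgeR adjusted p = 0.619).

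Of 16 further phosphatases, Sprouty proteins and decay factors that dampen the response, 15 were tested and none was called by edgeR. There were 1, 0 and 1 past an unadjusted p of 0.05, where 16.9%, 18.9% and 5.8% of all genes were past it. In CDK18KO against WT, 4 were higher and 11 lower, with a median of -0.61. Spry1, an inhibitor of receptor tyrosine kinase signalling, averaged 2.02 ± 3.45 against 15.2 ± 9.48 CPM, a log2 fold change of -2.80 (edgeR adjusted p = 0.185). It was called by DESeq2, which called 6.14% of all genes there. In DKO against WT 9 were higher and 6 lower (median 0.03), and against CDK18KO 13 were higher and 2 lower (median 0.38). Of these, Dusp10 had the smallest p in the last comparison, at 9.71 ± 14.0 against 1.83 ± 2.14 CPM (log2 fold change 2.34, edgeR adjusted p = 0.738). DKO 4 held 30.6 CPM of Dusp10 and DKO 1 to 3 held 4.57, 1.13 and 2.59 CPM, and without DKO 4 the value was 0.61.

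Of 25 upstream kinases and serum response or CREB factors, 24 were tested and none was called by edgeR or DESeq2. At an unadjusted edgeR p under 0.05 there were 3, 0 and 2, where 16.9%, 18.9% and 5.8% of all genes were past it. The medians were 0.05, 0.19 and 0.02. Of 17 early genes of NF-κB and cytokine signalling, 13 were tested and none was called by edgeR. Past an unadjusted p of 0.05 were 3, 5 and 2, all higher, beside the same shares over all genes. Against WT, 6 were higher and 7 lower in CDK18KO and 11 higher and 2 lower in DKO, with medians of -0.09 and 0.79. Irf1, an interferon response factor, averaged 91.7 ± 49.7 CPM in DKO against 31.1 ± 18.0 CPM in WT (log2 fold change 1.55, edgeR adjusted p = 0.166). In CDK18KO it averaged 83.3 ± 48.4 CPM (1.41 against WT, edgeR adjusted p = 0.212). With the hepatocyte covariate the Irf1 values were -0.0335 in DKO and 0.20 in CDK18KO. DESeq2 called 1 of the 13 genes, Icam1, an adhesion molecule, higher in CDK18KO than in WT (edgeR log2 fold change 2.36, adjusted p = 0.169, and 0.78 with that covariate). For DKO against WT, Icam1 was at 1.89 (edgeR adjusted p = 0.213), and at -0.32 with that covariate. Over all genes DESeq2 called 6.14%, 7.41% and 0.603% in the 3 comparisons.

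Other stress lists and cell type markers are given for what moved beside these levels. Of 14 hypoxia genes tested, 1 was higher and 13 lower in CDK18KO against WT (median -0.53), 6 were higher and 8 lower in DKO against WT (median -0.10), and 12 were higher and 2 lower in DKO against CDK18KO (median 0.74). DKO 4 held 3703 CPM of these genes, and DKO 1 to 3 held 933, 1110 and 1387 CPM. Adm, Vegfa, Egln3 and Bnip3 had the smallest p in the last comparison, at 2.23, 1.15, 1.47 and 1.09. Without DKO 4 they were at 0.45, 0.33, 0.19 and 0.39. The 16 heat shock genes had medians of 0.17, 0.04 and 0.05, and the 9 integrated stress response genes tested had 0.13, 0.75 and 0.16. Neutrophil markers summed to 46.6 to 293 CPM in WT, 6.83 to 95.5 CPM in CDK18KO and 384 to 559 CPM in DKO. Of the 10, 7 were tested, and all 7 were higher in DKO, with medians of 2.27 against WT and 3.97 against CDK18KO. Among the markers that define neutrophils, Ly6g was at 0 in 7 libraries and Cxcr2 in 4, while S100a8 and S100a9 were counted in all 14. None of these 7 passed the edgeR test. At an unadjusted p under 0.05 there were 6 against WT (18.9% of all genes) and 6 against CDK18KO (5.8%), and DESeq2 called 3 (7.41% of all genes) and 5 (0.603%). All 12 hepatocyte markers were tested and none passed the edgeR test, with 7, 10 and 1 higher at an unadjusted p under 0.05 and 4, 8 and 0 called by DESeq2, beside the same shares over all genes (16.9%, 18.9% and 5.8%, and 6.14%, 7.41% and 0.603%). They had medians of 2.47, 3.30 and 0.75. Stellate cell and fibroblast markers had medians of -1.05, -0.21 and 1.05, and cholangiocyte markers -3.82, 0.41 and 3.28. DESeq2 called 3 stellate cell markers lower in CDK18KO and 1 lower in DKO than in WT, and 4 cholangiocyte markers lower in CDK18KO than in WT and 2 higher in DKO than in CDK18KO. The medians of macrophage and Kupffer cell markers were -0.10 and 0.96 against WT, and all 9 tested were higher in DKO than in CDK18KO, with Marco, a macrophage scavenger receptor, at a log2 fold change of 3.58 (edgeR adjusted p = 0.508). The medians of endothelial markers were 0.20, 0.52 and 0.70, and those of erythroid markers were 0.02, 2.89 and 2.82. The 3 tested B and plasma cell markers had -0.03, 3.27 and 4.11. DESeq2 called 6 erythroid and 3 B and plasma cell markers higher in DKO than in WT, 4 and 3 higher in DKO than in CDK18KO, and 1 erythroid marker lower in CDK18KO than in WT. There were 11 stellate cell, 7 cholangiocyte and 8 erythroid markers tested. Neither edgeR nor voom called any cell type marker in any comparison. None of the 10 T and NK cell markers had the counts to be tested. With the hepatocyte marker level as a covariate, the DKO against WT difference of Dusp1 went from 1.51 to -0.10 and that of Zfp36 from 1.61 to -0.24. Between DKO and CDK18KO no sign turned. There Dusp1 ran from 1.82 to 3.05 and Zfp36 from 0.68 to 1.79 over all alternative fits, the hepatocyte covariate among them. That covariate moves with the groups, and the part of cell composition in these differences was not tested further.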

How the data were processed

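The authors deposited raw counts per gene symbol. Per the submitters' processing notes, STAR 2.7.11a and HTSeq 1.99.2 were used, beside UMI-tools 1.1.2, FastQC, and DESeq2 1.32.0, with mm10 and GRCh38 as builds of no stated role. Per the labels' protocols, libraries were primed on the poly(A) tail from 300.0 ng of RNA (integrity number 7.5 to 8.8), kept the strand and carried a 6-base molecular identifier. The counts are treated as reads, since duplicate collapse and the annotation are not given in the sources used here. Unused per-sample columns numbered 0.

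All 14 libraries entered 1 quasi-likelihood fit in edgeR 4.0.16 (R 4.3.3), with TMM factors, edgeR's low-count filter by group and two-sided tests adjusted by Benjamini-Hochberg over the 13997 genes kept, which held 99.0% of all counts. A call needed an adjusted p under 0.05. The common biological coefficient of variation was 0.598. Log2 CPM used a prior count of 2. An error is an SD over libraries, or an SE where so written. Correlations used 100000 resamples. The fit was tested on simulated data.

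The members, lists, tests and alternatives were chosen with earlier results of these data known. Named are all 10 members, up to 4 genes of smallest p in each list described, and the 10 genes most like the members. Alternatives were DESeq2 1.42.0, limma 3.58.1 voom with sample weights, RLE and upper-quartile factors, no filter, a stricter filter, a robust fit, only the pair of groups, the replicate number as a block, covariates for Y-linked and hepatocyte genes, and fits without each single library. Leaving out WT 5 and DKO 4 together, and Dixon gaps on log2 CPM, were chosen after seeing the data. The labels state no pairing by replicate number, and the numbers were not taken as pairs.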

Additional observations from a re-analysis of the deposited data

Results flagged for a closer look

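On CPM, a library stood far from the others for 11 of 30 sets of a member in a group, by Dixon's test of the gap to the nearest library. Chance flags about 1 in 20 sets of normally distributed values, and CPM values are skewed to the high side, so this rate is no measure of an excess here. With the gaps taken on log2 CPM, a choice made after seeing the data, 1 of the 30 sets stood apart, Atf3 in WT with WT 5 as the high library. The values below are those of the CPM scale.

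WT 5 was the highest WT library for 7 members by such a gap in CPM. Its level was 163 CPM for Fos, 567 CPM for Jun, 109.5 CPM for Junb, 133 CPM for Egr1, 25.5 CPM for Atf3, 105 CPM for Dusp1 and 103 CPM for Zfp36. CDK18KO 4 stood apart in CDK18KO with 368 CPM of Jun, 51.9 CPM of Atf3 and 39.6 CPM of Dusp1. In DKO 4 the level of Fosb was 50.6 CPM, from 91 counts, where no other library had more than 9 counts. WT 5 and DKO 4 had the lowest total counts and the highest mitochondrial share, whereas CDK18KO 4, with 3303291 counts and a mitochondrial share of 3.61%, did not stand apart in either.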

How the results depend on the processing

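No member passed the threshold in any edgeR or voom alternative. DESeq2 called 2 members for CDK18KO against WT and 1 for DKO against WT, and 0 for DKO against CDK18KO. Of 27 member and comparison pairs, 13 kept their sign in every alternative. The count of called genes over the whole table, 1, 1 and 0 in the 3 comparisons, was 856, 1033 and 84 with DESeq2 and 173, 252 and 42 without a filter. The cause was not tested.

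The median log2 fold change of the members for CDK18KO against WT was 0.17 without WT 5 and DKO 4, and ran from -0.83 to 0.16 with each library left out in turn. For DKO against WT it was -0.58 with the hepatocyte covariate.

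Signs turned for single members as follows, in log2 fold change. For CDK18KO against WT, Egr1 became 0.10 with voom and 0.0799 without a filter. The Y-linked covariate gave Jun 0.0577, Junb 0.0975 and Egr1 0.30, and the hepatocyte covariate gave Atf3 -0.0685 and Zfp36 -0.92. Without WT 5 and DKO 4, Jun was 0.17, Junb 0.0750, Egr1 0.55 and Dusp1 0.20. Leaving out each library in turn gave -1.43 to 0.16 for Jun, -0.62 to 0.0647 for Junb, -0.50 to 0.52 for Egr1, -0.20 to 1.39 for Atf3, -1.53 to 0.17 for Dusp1 and -0.0768 to 0.89 for Zfp36. For DKO against WT, the Y-linked covariate gave Jun 0.50, and the hepatocyte covariate gave Egr1 -0.19, Atf3 -0.58, Dusp1 -0.10 and Zfp36 -0.24. Leaving out each library gave -0.81 to 0.52 for Jun. For DKO against CDK18KO, voom gave Atf3 0.47, and without WT 5 and DKO 4 Jun was -0.19. Leaving out each library gave -0.20 to 1.17 for Jun, -0.60 to 0.74 for Atf3 and -0.30 to 0.21 for Ier2. The upper ends for CDK18KO against WT, and for Jun in DKO against WT, were those without WT 5. The lower ends of Atf3 and Zfp36 for CDK18KO against WT, and the upper end of Atf3 for DKO against CDK18KO, were those without CDK18KO 4. For DKO against CDK18KO, Jun was lowest without DKO 4 and Ier2 highest without CDK18KO 5.

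With the replicate number as a block, 0 members were called in each comparison, and Egr1 was 0.0163 (CDK18KO against WT), Jun 0.0576 (DKO against WT), Atf3 0.21 and Ier2 0.14 (both DKO against CDK18KO). The block took the calls over all genes to 297, 438 and 0. Same-numbered libraries correlated at -0.23 to 0.65, 6 of 13 pairs above 0.1. In 3 pairs, all of replicate 2, the first library correlated best with its own number. The numbers were not taken as pairs, and these values cannot settle whether some libraries share a batch.

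Low depth limits Fosb, with 3 counts or fewer in 10 libraries, and Fos, with 3 counts in each of CDK18KO 2 and CDK18KO 5.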
